A study of Bos taurus with 10 samples.

Results

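The genes described here handle fatty acids on their way into and through the cell: FABP1, FABP2, FABP3, FABP4, FABP5 and FABP7 of the fatty acid binding protein family, the membrane receptor CD36, lipoprotein lipase (LPL) and adiponectin (ADIPOQ). Members were the probe sets whose only gene symbol in the platform annotation was one of these names, which gave 11 probe sets for 9 genes, of 24016 probe sets and 9155 gene symbols in all. FABP4 and FABP5 had 2 probe sets each and every other gene had 1. The genes were chosen by name, and with the CLA minus control values of these pools already known, so those values are given below as a description and support nothing.

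Liver biopsies came from female Holstein dairy cows in week 5 of lactation. The 20 cows of the CLA group ate a fat containing conjugated linoleic acid, isomers of linoleic acid in which the double bonds are conjugated, and the 20 cows of the control group ate a control fat. Both fats were protected from the rumen and formed 27.3% of a supplemental concentrate, of which each cow received 630 g of dry matter daily on top of the same basal ration. Feeding began in week 3 before calving and ended in week 14 of lactation. RNA of 4 cows was mixed into each pool, with 5 CLA pools and 5 control pools and 1 Affymetrix bovine array per pool, so values of single cows were not measured.

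Fatty acids reach a cell either bound to albumin or inside lipoprotein triacylglycerol, from which LPL at the capillary wall releases them. CD36 and the fatty acid transport proteins help them across the plasma membrane, and fatty acid binding proteins carry them through the cytosol to mitochondria, membranes, lipid droplets and nuclear receptors. Each binding protein is named for a tissue where it is abundant: FABP1 for liver, FABP2 for intestine, FABP3 for heart and muscle, FABP4 for adipocytes, FABP5 for skin and FABP7 for brain. In early lactation the liver of a dairy cow takes up large amounts of fatty acids released from body fat.

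Values are log2 expression, where 1 unit is a doubling. The array medians lay between 5.79 and 5.82 in the CLA pools and between 5.83 and 5.85 in the control pools, and array pairs correlated at 0.988 to 0.996 across probe sets. The hepatocyte markers were all measured above the dimmest 30% of probe sets (12 of 12), and their mean lay between 12.93 and 12.99 in the CLA pools and between 12.83 and 12.97 in the control pools. Probe sets differ in how strongly they bind, so levels are compared between pools of 1 probe set, never between genes. Of the 11 member probe sets 4 lay among the dimmest 30% on the arrays, with a mean below 4.385: those of FABP2, FABP7 and ADIPOQ and the dimmer one of FABP4. In a bulk biopsy, fewer cells of a type and less RNA per cell cannot be told apart.

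The CLA and control pools overlapped at every one of the 11 member probe sets. With limma and Benjamini-Hochberg adjustment over 24016 probe sets, 0 of the 11 had an adjusted p under 0.05 (0% of all probe sets did), and the lowest adjusted p among them was 0.746. At an unadjusted p under 0.05 the count was 0 of 11, where 8.89% of all probe sets passed, and groups without overlap numbered 0 of 11 against 1.97% of all. The median difference of the member probe sets was 0.02 (CLA minus control, log2), with 6 higher, 4 lower and 1 within 0.005 of zero, beside a median of -0.02 over all probe sets.

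**Figure D1:**
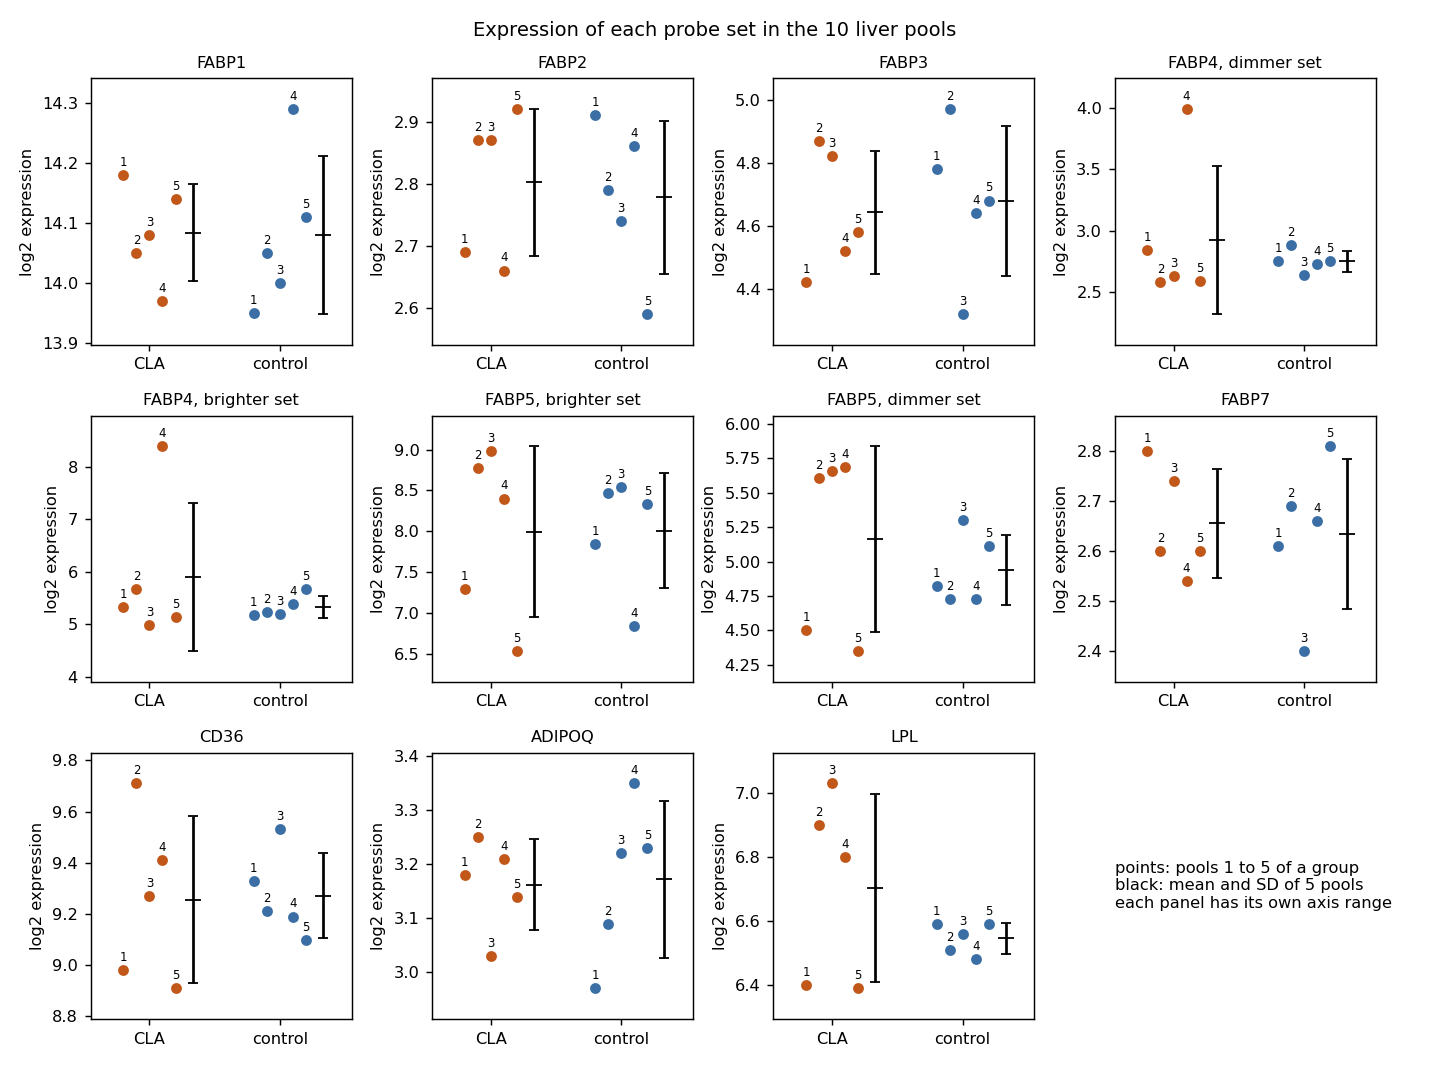
Log2 expression of the 11 member probe sets (vertical axis, 1 panel each with its own range) in the CLA pools (left, orange) and the control pools (right, blue); points are pools 1 to 5 and black bars the mean and SD of 5 pools. The groups overlap in every panel, CLA pool 4 stands at 8.39 for FABP4, and the LPL values of the CLA pools lie on both sides of the control pools.

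FABP1, the fatty acid carrier of hepatocytes, was nearly the same in all pools. It stood at 14.18, 14.05, 14.08, 13.97 and 14.14 in CLA pools 1 to 5, against 13.95, 14.05, 14.00, 14.29 and 14.11 in control pools 1 to 5. The highest and the lowest value were both control pools, and the whole range of the 10 pools was 0.34 (1.27-fold). The means were 14.08 ± 0.081 in the CLA pools and 14.08 ± 0.13 in the control pools (SD, n = 5 each), and the difference was 0.00 ± 0.078 SE. Its 95% confidence interval, 0.891-fold to 1.13-fold, is the range of differences that the 10 pools allow for this gene. The brightest probe set of each array stood at 14.93 to 14.98, so FABP1 was read close to the upper end of the scale.

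CD36, the membrane receptor that binds long-chain fatty acids, varied more between pools than FABP1. CD36 stood at 8.98, 9.71, 9.27, 9.41 and 8.91 in CLA pools 1 to 5, against 9.33, 9.21, 9.53, 9.19 and 9.10 in control pools 1 to 5. CLA pool 2 was the highest and CLA pools 1 and 5 the lowest of the 10, so the CLA pools enclosed the control pools on both sides. The means were 9.26 ± 0.33 in the CLA pools and 9.27 ± 0.17 in the control pools (SD, n = 5 each), a difference of -0.02 ± 0.14 SE (95% confidence interval 0.797-fold to 1.23-fold).

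LPL, the lipase that releases fatty acids from circulating triacylglycerol, showed the same arrangement more sharply. LPL stood at 6.40, 6.90, 7.03, 6.80 and 6.39 in CLA pools 1 to 5, against 6.59, 6.51, 6.56, 6.48 and 6.59 in control pools 1 to 5. CLA pools 2, 3 and 4 were above every control pool, and CLA pools 1 and 5 were below every control pool. The means were 6.70 ± 0.29 in the CLA pools and 6.55 ± 0.049 in the control pools (SD, n = 5 each). The difference was 0.16 ± 0.12 SE (1.12-fold, 95% confidence interval 0.930-fold to 1.34-fold), and the spread between the CLA pools exceeded it. Leaving out 1 pool moved it to between 0.077 (without CLA pool 3) and 0.24 (without CLA pool 5). It was the member with the lowest adjusted p, the 0.746 given above.

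**Figure D2:**
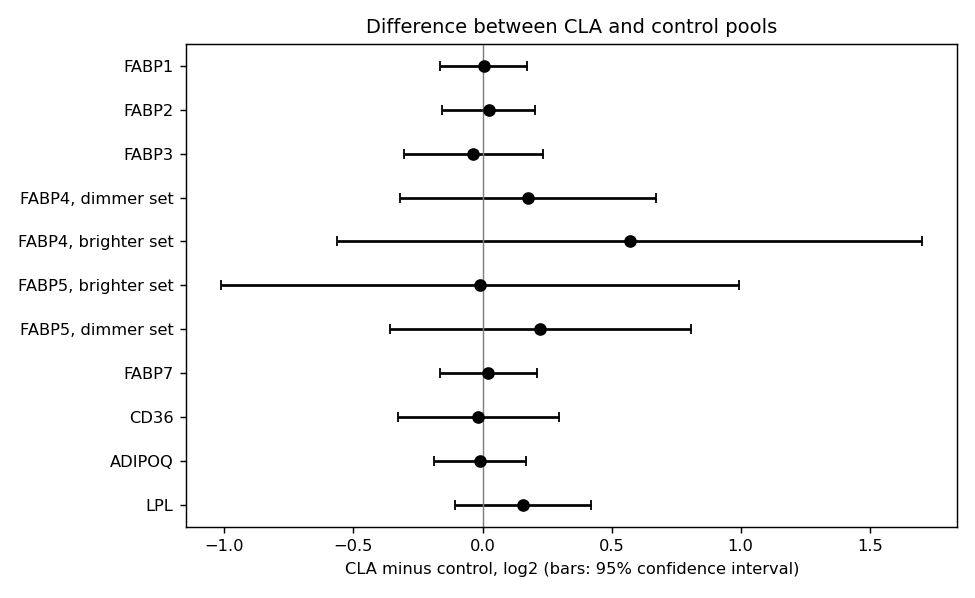
Difference between CLA and control pools (horizontal axis, CLA minus control, log2) for each member probe set, with points for the difference and bars for the 95% confidence interval of limma. Every interval includes zero, from the narrow one of FABP1 (0.891-fold to 1.13-fold) to the widest, that of the brighter FABP4 probe set (0.676-fold to 3.26-fold).

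FABP5, a fatty acid carrier found in many cell types including macrophages, differed little between the diets and widely between pools. At its brighter probe set FABP5 stood at 7.29, 8.77, 8.98, 8.40 and 6.53 in CLA pools 1 to 5, against 7.84, 8.47, 8.54, 6.84 and 8.33 in control pools 1 to 5. CLA pools 1 and 5 and control pool 4 were low, and the 10 pools spanned 2.45 (5.46-fold). Of all probe sets, 0.154% had a within-group SD as large as the 0.89 of this FABP5 probe set. The means were 7.99 ± 1.05 in the CLA pools and 8.00 ± 0.71 in the control pools (SD, n = 5 each), and the difference of -0.01 ± 0.46 SE has a 95% confidence interval from 0.496-fold to 1.99-fold. Leaving out 1 pool moved it to between -0.30 (without control pool 4) and 0.36 (without CLA pool 5).

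The dimmer FABP5 probe set largely followed the same pools. FABP5 stood there at 4.50, 5.61, 5.66, 5.69 and 4.35 in CLA pools 1 to 5, against 4.82, 4.73, 5.30, 4.73 and 5.11 in control pools 1 to 5. CLA pools 1 and 5 were the lowest of the 10 there, and CLA pools 2, 3 and 4 lay above every control pool. Control pool 2, at 8.47 at the brighter probe set, shared the lowest control value of 4.73 with control pool 4. The difference was 0.22 ± 0.27 SE, and leaving out 1 pool moved it to between 0.092 (without CLA pool 4) and 0.43 (without CLA pool 5). With group means removed, the FABP5 probe sets correlated over the 10 pools at Pearson's r = 0.86 (permutation p = 0.00191) and Spearman's rho = 0.78 (permutation p = 0.0110), with adjusted p of 0.00270 and 0.0118 in a family of 2, and r was 0.86 without CLA pool 5 and control pool 4.

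The pools in which FABP5 was low were largely those in which LPL and CD36 were low. Over the 10 pools with group means removed, FABP5 and LPL correlated at Pearson's r = 0.84 (permutation p = 0.00218) and Spearman's rho = 0.80 (permutation p = 0.00703). Neither passed the Benjamini-Hochberg adjustment over the 54 relations computed (adjusted p = 0.118 and 0.291), and r was 0.88 without CLA pool 5 and control pool 4. Without control pool 4 alone the relation reached r = 0.91 and an adjusted p of 0.0443, the single one of 13 alternatives in which it passed. The relation was not computed within the 5 CLA pools or the 5 control pools alone, and the control pools differed by no more than 0.11 in LPL.

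CD36 related more loosely to both. CD36 and LPL had Pearson's r = 0.70 (permutation p = 0.0226, adjusted 0.437) and Spearman's rho = 0.71 (permutation p = 0.0254, adjusted 0.324), with r = 0.54 without CLA pools 2 and 5. FABP5 and CD36 had Pearson's r = 0.69 (permutation p = 0.0290, adjusted 0.437) and Spearman's rho = 0.73 (permutation p = 0.0203, adjusted 0.324), with r = 0.59 without CLA pool 5 and control pool 4. CD36 also moved with the interquartile range of the array (r = 0.68, permutation p = 0.0324, adjusted 0.437; rho = 0.61, permutation p = 0.0649, adjusted 0.520), and this fell to 0.24 without CLA pools 2 and 5. FABP1 and FABP5 ran in opposite directions (r = -0.64, permutation p = 0.0487, adjusted 0.526; rho = -0.50, permutation p = 0.147, adjusted 0.611), and r was -0.63 without control pools 1 and 4. FABP1 and CD36 also ran in opposite directions, more clearly by rank (rho = -0.78, permutation p = 0.0108, adjusted 0.291; r = -0.56, permutation p = 0.0899, adjusted 0.599), and r was -0.78 without control pools 1 and 4. ADIPOQ ran opposite to the array median by rank (rho = -0.70, permutation p = 0.0300, adjusted 0.324), less so by Pearson's r = -0.53 (permutation p = 0.122, adjusted 0.599). The 54 relations include those of each member with the array median and the array interquartile range. Of the 54 relations 5 had an unadjusted permutation p under 0.05 for Pearson's r and 5 for Spearman's rho, and 0 passed the adjustment for either.

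**Figure D3:**
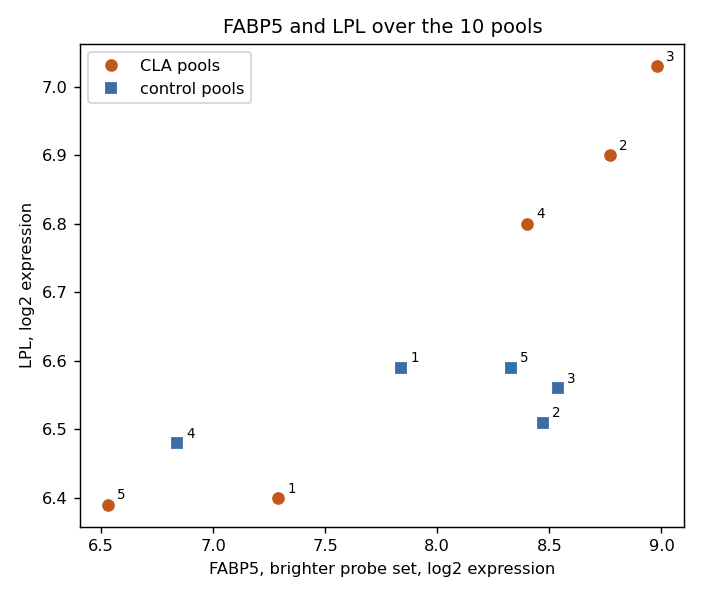
LPL (vertical axis) against FABP5 at its brighter probe set (horizontal axis), both as log2 expression, with circles for the 5 CLA pools, squares for the 5 control pools and pool numbers beside them. CLA pools 2, 3 and 4 lie at the upper right, CLA pools 1 and 5 at the lower left, and the control pools differ little in LPL while FABP5 ranges from 6.84 to 8.54 among them.

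Among 7766 genes outside the list and the dimmest 30%, the gene most like FABP5 over the 10 pools was LGALS3, the carbohydrate-binding protein galectin-3 (Pearson's r = 0.96 with group means removed, 0.89 without CLA pool 5 and control pool 4). LGALS3 stood at 7.41, 8.85, 8.77, 7.86 and 6.67 in CLA pools 1 to 5, against 8.15, 8.52, 8.34, 6.88 and 8.26 in control pools 1 to 5. CLA pools 1 and 5 and control pool 4 were its 3 lowest pools, as for FABP5. Next came SEL1L (r = 0.93, 0.79 without the same 2 pools), an endoplasmic reticulum protein that LPL needs for its maturation, whose values spanned 10.01 to 10.41. For LPL the genes most alike were CAPG, an actin-capping protein (r = 0.88, 0.82 without CLA pools 2 and 3), and EOGT, a glycosyltransferase (r = 0.87, 0.84 without the same pools). For CD36 they were PUS7, a pseudouridine synthase (r = 0.95, 0.93 without CLA pools 2 and 5), and SUCLA2, a succinyl-CoA synthetase subunit (r = 0.94, 0.89 without those pools). These are the highest of 7766 correlations over 10 pools, and are given as a description.

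**Figure D4:**
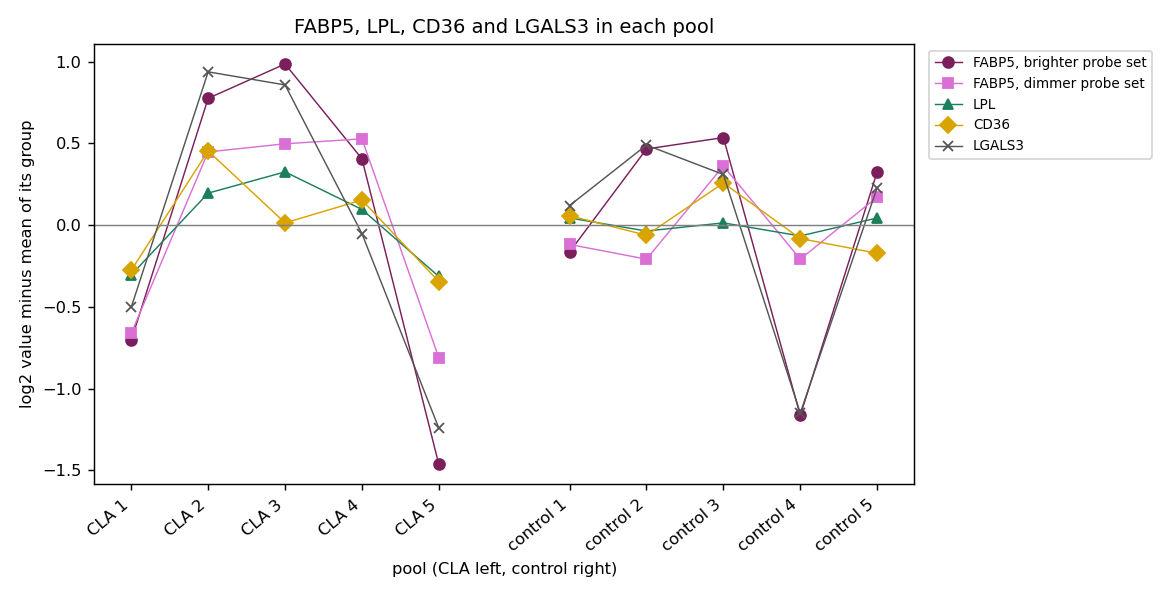
Log2 value minus the mean of its group (vertical axis) for the FABP5 probe sets, LPL, CD36 and LGALS3 in each pool (horizontal axis, CLA left, control right). FABP5 and LGALS3 are both low in CLA pools 1 and 5 and control pool 4, and the swings of LPL and CD36 are smaller.

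Levels of markers of other liver cells are set beside these pools. The mean of 9 macrophage markers, all above the dimmest 30%, ranged from 9.22 to 9.54 in the CLA pools and from 9.22 to 9.76 in the control pools. It correlated with FABP5 at r = -0.02 (permutation p = 0.956) and rho = -0.07 (permutation p = 0.864), and at r = -0.23 without CLA pool 5 and control pool 4. With LPL it had r = 0.21 (permutation p = 0.566) and rho = 0.25 (permutation p = 0.484), and r = 0.38 without CLA pools 2 and 3. With CD36 it had r = 0.13 (permutation p = 0.711) and rho = 0.22 (permutation p = 0.535), and r = 0.07 without CLA pools 2 and 5. The macrophage markers did not all move alike, so their mean does not stand for each of them. CD68, MSR1 and VSIG4 were lowest in CLA pool 5, at 8.16, 7.11 and 6.41, where FABP5 was lowest too. C1QA, C1QB, C1QC, CD5L and CSF1R were lowest in control pool 3, at 11.05, 10.59, 9.99, 12.72 and 8.01, where FABP5 stood at 8.54. TIMD4 was lowest in CLA pool 2 at 7.25, where FABP5 stood at 8.77. Single markers were not correlated with FABP5, LPL or CD36. The mean of 13 endothelial markers, 2 of them among the dimmest 30%, ranged from 6.87 to 7.08 in the CLA pools and from 6.92 to 7.27 in the control pools, and had r = -0.53 (permutation p = 0.114) and rho = -0.43 (permutation p = 0.218) with FABP5, and r = -0.02 without CLA pool 5 and control pool 4. Of 24 relations between FABP4, FABP5, CD36 or LPL and the mean of a marker list, 0 had an unadjusted permutation p under 0.05, and every adjusted p was 0.866 or more.

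FABP4, the carrier of adipocytes that macrophages and capillary endothelium also make, stood far apart in 1 pool. At its brighter probe set FABP4 stood at 5.33, 5.68, 4.98, 8.39 and 5.14 in CLA pools 1 to 5, against 5.18, 5.23, 5.20, 5.38 and 5.68 in control pools 1 to 5. CLA pool 4 lay 2.71 above the next pools (6.54-fold), while the other 9 pools spanned 4.98 to 5.68. At its dimmer probe set FABP4 stood at 2.84, 2.58, 2.63, 3.99 and 2.59 in CLA pools 1 to 5, against 2.75, 2.88, 2.64, 2.73 and 2.75 in control pools 1 to 5. CLA pool 4 was again alone at the top, 1.11 above the next pool on the log2 scale. The other 9 pools lay between 2.58 and 2.88 there, a level that cannot be told from background in these values, so no fold is given. Among all probe sets, 0.0874% had a within-group SD as large as that of the brighter FABP4 probe set.

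With CLA pool 4 the CLA mean of FABP4 at its brighter probe set was 5.90 ± 1.41, against 5.33 ± 0.21 in the control pools (SD, n = 5 each). The difference was 0.57 ± 0.52 SE, and it fell to -0.05 without CLA pool 4. At the dimmer probe set the difference was 0.18 ± 0.23 SE, and -0.09 without CLA pool 4. At both probe sets the difference was positive with CLA pool 4 and negative without it. The FABP4 probe sets correlated over the 10 pools at r = 0.95 (permutation p = 0.00270, adjusted 0.00270 over 2 relations; rho = 0.77, permutation p = 0.0118, adjusted 0.0118), and r was 0.31 without CLA pools 2 and 4. Of those pools CLA pool 4 was the highest at both probe sets, while CLA pool 2 was the lowest at the dimmer one, at 2.58. This relation was not computed without CLA pool 4 alone.

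No other probe set on the array stood as far above the remaining pools, in CLA pool 4 or in any other. The 2.71 of FABP4 was the largest such gap in CLA pool 4, and the largest gaps in the other 9 pools were between 0.64 and 1.77. In CLA pool 4 there were 6 probe sets more than 1 above all other pools, against 0 to 4 in each of the others. Besides both probe sets of FABP4 and 2 without a gene name they were GPX3, the extracellular glutathione peroxidase, at 7.10 in CLA pool 4 and 5.26 or less elsewhere, and APOD, a lipid-binding lipocalin, at 6.17 in CLA pool 4 and 5.11 or less elsewhere. GPX3 was also the gene most like FABP4 over the 10 pools (r = 0.92, 0.77 without CLA pools 2 and 4), followed by SCNN1G, a sodium channel subunit (r = 0.90, 0.66 without those pools). APOD was picked after its values were seen. Its second probe set stood at 4.93 in CLA pool 4 and 4.28 or less elsewhere, and its remaining one at 3.44 in CLA pool 4, inside the range of the others.

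Neither ADIPOQ nor any of 8 measured adipocyte markers stood alone at the top in CLA pool 4. ADIPOQ, the hormone adiponectin that adipocytes secrete, stood at 3.18, 3.25, 3.03, 3.21 and 3.14 in CLA pools 1 to 5, against 2.97, 3.09, 3.22, 3.35 and 3.23 in control pools 1 to 5. All 10 values lay within 0.38, at the dim end of the array, and CLA pool 4 was in the middle of them. The difference was -0.01 ± 0.082 SE (0.878-fold to 1.12-fold). The mean of the 8 adipocyte markers was 6.09 in CLA pool 4, and the range was 5.95 to 6.27 in the CLA pools and 6.10 to 6.22 in the control pools. Of these 8 markers 0 were above all other pools in CLA pool 4, 1 shared the highest value and 1 was the lowest of the 10 pools. The hormone LEP, the 1 adipocyte marker among the dimmest 30%, stood at 4.21 in CLA pool 4, the highest value of the 10 pools and shared with control pool 4. The lipase LIPE stood at 5.79 there, second to CLA pool 5 at 5.83. CFD, the secreted protease adipsin, stood at 11.55 in CLA pool 4, above the 11.19 to 11.38 of the other CLA pools and below control pool 4 at 11.95. Lower in the order, CIDEA and CIDEC, proteins of lipid droplets, stood at 7.96 and 4.96 in CLA pool 4, the second of these being the lowest of the 10 pools. TRARG1, RETN and AQP7 stood at 5.39, 4.17 and 4.72 there, inside the range of the other pools.

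Markers of the other cells that make FABP4 are set beside the same pool. Macrophage markers averaged 9.54 in CLA pool 4, the highest of the CLA pools, and 0 of the 9 were above all other pools there. They averaged 9.76 and 9.56 in control pools 1 and 4, where FABP4 stood at 5.18 and 5.38. Endothelial markers averaged 7.08 in CLA pool 4, also the highest of the CLA pools, and 7.27 in control pool 4. Of the 13 endothelial markers 2 were above all other pools in CLA pool 4: the surface protein EMCN at 7.27, 0.14 above the next pool, and the scavenger receptor STAB2 at 5.56, 0.11 above the next. The part of these cells in the FABP4 value was not tested.

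**Figure D5:**
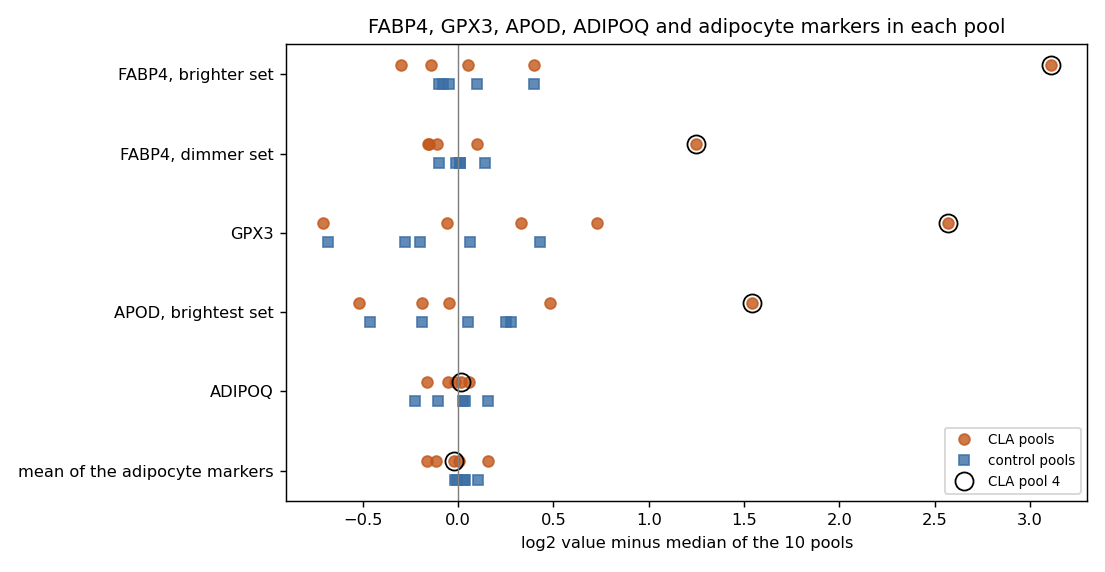
Log2 value minus the median of the 10 pools (horizontal axis) for both FABP4 probe sets, GPX3, APOD, ADIPOQ and the mean of 8 adipocyte markers, with circles for CLA pools, squares for control pools and a ring around CLA pool 4. CLA pool 4 is far to the right for FABP4, GPX3 and APOD and among the other pools for ADIPOQ and the adipocyte markers.

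FABP3, the carrier of heart and skeletal muscle, stood at 4.42, 4.87, 4.82, 4.52 and 4.58 in CLA pools 1 to 5, against 4.78, 4.97, 4.32, 4.64 and 4.68 in control pools 1 to 5. The groups overlapped throughout, and the difference was -0.04 ± 0.12 SE (0.809-fold to 1.18-fold). The mean of 10 muscle markers, 6 of them among the dimmest 30%, ranged from 4.91 to 5.30 in the CLA pools and from 5.05 to 5.68 in the control pools. Control pool 1 held that highest muscle value, and 3 other pools had more FABP3. MYL2, TNNT1 and ACTA1, all among the dimmest 30%, were highest in control pool 1, at 5.44, 4.68 and 5.15. None of the other muscle markers was highest there. MYH7 stood at 9.78 in control pool 1 and 10.1 in CLA pool 2, and CKM at 8.84 in control pool 1 and 9.3 in control pool 3. The relation of FABP3 to the muscle markers was not tested.

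FABP2, the intestinal carrier, and FABP7, the carrier of brain, stood at the dim end of the array in all pools. FABP2 stood at 2.69, 2.87, 2.87, 2.66 and 2.92 in CLA pools 1 to 5, against 2.91, 2.79, 2.74, 2.86 and 2.59 in control pools 1 to 5. FABP7 stood at 2.80, 2.60, 2.74, 2.54 and 2.60 in CLA pools 1 to 5, against 2.61, 2.69, 2.40, 2.66 and 2.81 in control pools 1 to 5. The differences were 0.02 ± 0.082 SE for FABP2 and 0.02 ± 0.086 SE for FABP7. Without detection calls in the values used, neither gene can be said to be above background. The genes most like FABP1, FABP2, FABP3, FABP7 and ADIPOQ over the pools were TCTN1, ITCH, ENPP3, ARHGAP24 and POLR2E, followed by PPP1R10, TP53I3, PTRHD1, SSBP4 and CRYL1, and all 18 such correlations of the 9 genes lay between 0.87 and 0.96.

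The relatives of these carriers were measured in part. On the ARS-UCD2.0 assembly of RefSeq, FABP5, PMP2, FABP9, FABP4 and FABP12 follow each other as neighbouring protein-coding genes, and only FABP5 and FABP4 of these 5 had a named probe set. Over the 10 pools with group means removed, FABP4 and FABP5 had r = 0.20 (permutation p = 0.622, adjusted 0.840) and rho = -0.09 (permutation p = 0.810, adjusted 0.950), and r was -0.29 without CLA pools 2 and 4. Of 10 other genes of the intracellular lipid-binding protein family 3 were measured, all among the dimmest 30%, and 0 passed limma's adjusted test in either direction. CRABP1, a retinoic acid carrier, differed by -0.14 ± 0.085 SE, FABP6, the ileal bile acid carrier, by -0.09 ± 0.091 SE, and CRABP2 by 0.11 ± 0.17 SE.

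Genes that act before and after these carriers were described from lists of their pathway. Of 12 measured genes of fatty acid uptake and activation 0 passed the adjusted test in either direction, 9 were higher and 2 lower in the CLA pools, and the median difference was 0.09, beside -0.01 over 9155 genes. SLC27A2, a fatty acid transport protein of liver, differed by 0.20 ± 0.097 SE, CAV2, a caveolin, by 0.17 ± 0.085 SE, and SLC27A4, another transport protein, by 0.26 ± 0.14 SE, and for all of them the groups overlapped. The list's median stayed positive in every alternative tried, from 0.053 without CLA pool 2 to 0.14 without CLA pool 4. Across all 9155 genes, CLA exceeded control at 4080 and fell below it at 4745. The 12 hepatocyte markers leaned upward as well, 10 rising and 1 falling. Their middle difference was 0.049, and 0.0081 after cyclic loess normalization. Whether the upward lean is particular to fatty acid uptake was not tested.

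Of 8 measured partners of LPL 0 passed in either direction, 6 were higher and 2 lower, and the median was 0.05, turning to -0.0058 without CLA pool 2. APOA5, an apolipoprotein that aids LPL, differed by 0.17 ± 0.12 SE, LIPC, hepatic lipase, by 0.10 ± 0.084 SE, and VLDLR, a lipoprotein receptor, by -0.20 ± 0.19 SE. Of CD36's relatives and ligand, the scavenger receptors SCARB2 and SCARB1 and thrombospondin THBS1, 0 of 3 passed, with differences of -0.02 ± 0.11 SE, -0.01 ± 0.078 SE and -0.01 ± 0.061 SE. The adiponectin receptors ADIPOR1 and ADIPOR2 differed by -0.06 ± 0.077 SE and 0.06 ± 0.17 SE, and CDH13, which binds adiponectin at the cell surface, by -0.10 ± 0.14 SE, with 0 of 3 passing.

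Fatty acid binding proteins hand ligands to peroxisome proliferator-activated receptors, and several of the carriers are targets of these receptors. Of 7 measured receptors and partners 0 passed in either direction, 2 were higher and 4 lower, and the median was -0.06, from -0.14 without CLA pool 2 to -0.03 after subtraction of array medians. PPARG, the receptor of adipocytes, differed by -0.16 ± 0.077 SE at the dim end of the array. PPARA, the receptor of hepatocytes, differed by -0.27 ± 0.17 SE, and PPARD by -0.12 ± 0.084 SE. The groups overlapped at all of them, and the lowest adjusted p of the list was 0.579.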

How the data were processed

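Liver RNA of 5 CLA pools and 5 control pools was measured on 10 Affymetrix bovine arrays. The deposited values are log2 expression, 1 per probe set and array, made by the authors with Affymetrix Expression Console 1.1 and RMA, per the submitters' processing notes. Settings and genome build are not given in the sources used here. Values carried 2 decimals and were not normalized again.

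Of 24128 probe sets, 112 manufacturer controls were left out. Through the platform annotation 13292 of the 24016 tested had 1 gene symbol, 86 several and 10638 none. The gene identifiers of 13263 were found in RefSeq's gene table (ARS-UCD2.0), where 0 symbols differed. Lists used the brightest probe set of each gene.

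Differences, CLA minus control, came from limma 3.58.1 (lmFit, eBayes) under R 4.3.3 without covariates and adjusted over all probe sets by the Benjamini-Hochberg method at 0.05. On 1 simulated data set with 50 changed probe sets per fold, this fit recovered 34% of those changed 1.3-fold, 72% of those changed 1.5-fold, 94% of those changed 2-fold and 100% of those changed 3-fold. All were adjusted together, and the larger changes ease the threshold for the smaller ones. The rates therefore do not hold where few probe sets change. The changed probe sets were drawn at random, so these rates do not hold for probe sets as variable as those of FABP4 and FABP5. Relations used two-sided permutation tests with 100000 resamples (numpy 2.4.6). P-values measure the spread between pools of 4 cows; the number of arrays limits the precision.

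Members and lists were chosen with earlier results of these data known. Named were every member probe set, the 2 genes most correlated with each member and the 3 genes of smallest p in each pathway list. The endothelial markers EMCN and STAB2 and the named muscle markers were picked after their values were seen. The pool in which each macrophage marker was lowest was also singled out after the values were seen. Adipocyte markers are all given for 1 pool, and the remaining markers are summarised. Same-numbered pools were checked for pairing: deviations from the group means correlated at -0.09 to 0.09 over probe sets, with 0 of 5 pairs over 0.1. Pool numbers were therefore not used as pairs in the main fit. Pairing that touches few probe sets would not show in this check. Alternatives were each pool left out, the pool number as a block, 3 other normalizations, a filter on the dimmest 30%, array weights, an unmoderated test, trend and robust options, a threshold of 0.1 and averaging over probe sets of 1 gene. Milk, blood and biopsies of other weeks were not analysed here.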

Additional observations from a re-analysis of the deposited data

Results flagged for a closer look

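In CLA pool 4 FABP4 stood at 8.39 at its brighter probe set and at 3.99 at its dimmer one, in both cases far above the other 4 CLA pools (gap to the next CLA pool over the range of all 5 CLA pools 0.795 and 0.816, against a critical value of 0.71 for 5 samples). Both values belong to 1 pool and 1 gene. Of 22 groups of 5 pools examined, 2 were picked out in this way, and chance picks out about 1 in 20 groups.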

How the results depend on the processing

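In each of 20 alternatives limma called 0 of all probe sets, 0 member probe sets and 0 pathway genes. At an unadjusted p under 0.05 the member count was 0 in all 20, and that of all probe sets lay between 739 and 2297, against 2135. These counts do not share a total: the dim filter left 16813 probe sets and averaging left 9155 genes, against 24016 probe sets. With the pool number as a block in the fit the calls were likewise 0, and 0 of 5 CLA pools correlated best with the control pool of its own number. None of 198 recomputed member differences moved by more than the SD within groups. That count was largely fixed in advance and does not measure stability. Leaving out 1 of 5 pools cannot move a difference that far. The block, the dim filter, the trend and robust options and the unmoderated test leave it unchanged. FABP4 at both probe sets turned negative without CLA pool 4. The small differences of FABP1, FABP2, FABP3, FABP5 at its brighter probe set, FABP7, CD36 and ADIPOQ changed sign in some settings. That of FABP1 did so in 7 of 18 (-0.056 after quantile normalization, -0.039 after cyclic loess). Of 215 recomputed list medians 1 moved by more than the SD within groups, that of the peroxisome proliferator-activated receptors without CLA pool 2. The adipocyte median, -0.02, turned to 0.02 after quantile normalization, 0.01 after subtraction of array medians and 0.02 after cyclic loess normalization, and that of CD36's relatives to 0.02 after subtraction of array medians. Relations that passed numbered 0 to 1 with a pool left out: FABP5 with LPL without control pool 4, and FABP2 with the interquartile range of the array without CLA pool 5. They numbered 0 after quantile normalization, without removal of group means and with 14400 exact orders within groups. The last alternative and the pools left out of the relations were chosen after seeing the data.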
